A study of Mus musculus with 20 samples.

Results

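Transcripts were compared between CD44KO(HFD) and WT(HFD) mice in liver and in white adipose tissue (WAT), and the question was where loss of CD44 changed a transcript differently in the 2 tissues. The members were chosen by the genotype and tissue labels alone, and all 20 of the 20 arrays of the series took part. They fall into 4 groups of 5: WT liver, CD44KO liver, WT WAT and CD44KO WAT. All groups shared a C57BL/6 background, male sex, an age of 7 months and 21 weeks on a diet with 35% fat (HFD), and the CD44KO animals were whole-body knockouts. No group ate a normal diet, and the depot from which the WAT was taken is not given in the labels. Whether the liver and the WAT array of 1 replicate number came from the same mouse is not stated, so p-values measure the spread among these samples.

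CD44 is a cell-surface glycoprotein that binds hyaluronan in the extracellular matrix and is carried by leukocytes, fibroblasts, endothelial cells and many epithelia. In obesity, WAT expands by filling adipocytes with triglyceride and by remodelling its vessels and matrix, and leukocytes, mast cells among them, settle in it. A liver exposed to excess fat stores triglyceride in hepatocytes, switches on genes that are otherwise typical of adipocytes, and can activate stellate cells, the pericytes of the sinusoid, which then make collagen.

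For each probe, the CD44KO effect is the mean log2 level in CD44KO minus that in WT within 1 tissue, and the difference is the liver effect minus the WAT effect. A level is log2 of the processed signal minus the 75th percentile of its own array, so that 0 is the brightness of the probe at that percentile, and levels of different probes are not set against each other. A negative difference means that the CD44KO effect was lower in liver than in WAT. Values after ± are standard errors (SE, n = 5 arrays a group), and a call means a limma adjusted p under 0.05. In tissue RNA, fewer cells of a type and less RNA per cell cannot be told apart.

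Each tissue had its own slides, so tissue and slide cannot be told apart, whereas the CD44KO effect is taken within 1 tissue. Slide 6 held only CD44KO WAT 1 and 4, and each of the other slides held both genotypes of its tissue. The 75th percentile signal was 433 to 575 on liver arrays and 1541 to 2792 on WAT arrays, and precision is limited by having 5 arrays in each group. WT WAT 1 stood apart from the other WT WAT arrays. It had 89.5% of spots well above background, against 63.2% to 69.5% on the other WAT arrays, and it correlated with its group at 0.859 at the lowest, whereas the other 4 correlated at 0.962 to 0.986. CD44KO liver 3 lay near WT liver for many of the genes below. Hepatocyte markers summed to a log2 level of 11.55 to 12.06 in liver and 1.84 to 5.99 in WAT, and adipocyte markers to 9.07 to 10.41 in WAT and 4.05 to 6.91 in liver, as the tissue labels say. Cd44 fell in both tissues on 2 of its 3 probes. Its probe at chr2:102663537-102663596 (build mm7, as for all positions here) fell by 4.21 in liver and by 4.57 in WAT on the log2 scale, with no overlap of genotypes, although all 5 CD44KO WAT arrays still read it well above background. Its difference of 0.36 ± 0.28 was not called (limma adjusted p = 0.552). A second probe was at least 7.09-fold lower in CD44KO liver, where no array read it well above background, and fell by 4.28 in WAT. The remaining probe, at chr2:102685050-102685109 and well above background on at most 3 of 5 arrays of any group, had effects of 0.2 in liver and -0.46 in WAT with overlapping genotypes.

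The effect of CD44 loss differed between liver and WAT for 334 of 28989 probes, or 1.15%. The effect was lower in liver than in WAT for 253 of them (0.873% of those tested) and higher for 81 (0.279%). Most of these probes were read in both tissues, where 295 of 23354 were called. Among the 295, 223 went down in liver and up in WAT in the means, 55 went the other way, 13 were lower in both and 4 were higher in both. The liver effect alone passed its own test for 119 of the 295, the WAT effect alone for 130, both for 10 and neither for 36. At an unadjusted p under 0.05, 2377 of the 28989 probes tested had a lower and 2193 a higher difference. At that threshold the liver effect was lower for 1984 and higher for 2056, and the WAT effect for 3416 and 3669. An opposite sign by itself was common, since 45.1% of all probes read in both tissues had effects of opposite sign. Therefore, a probe was counted as changed in opposite directions when its difference was called and each tissue's effect was at least 1.5-fold, which left 66 probes of 56 symbols (0.283% of those read in both). Of these, 55 were lower in CD44KO liver and higher in CD44KO WAT, and 11 were the reverse. In only 9 of the 66 did the effect of each tissue also pass its own test.

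**Figure D1:**
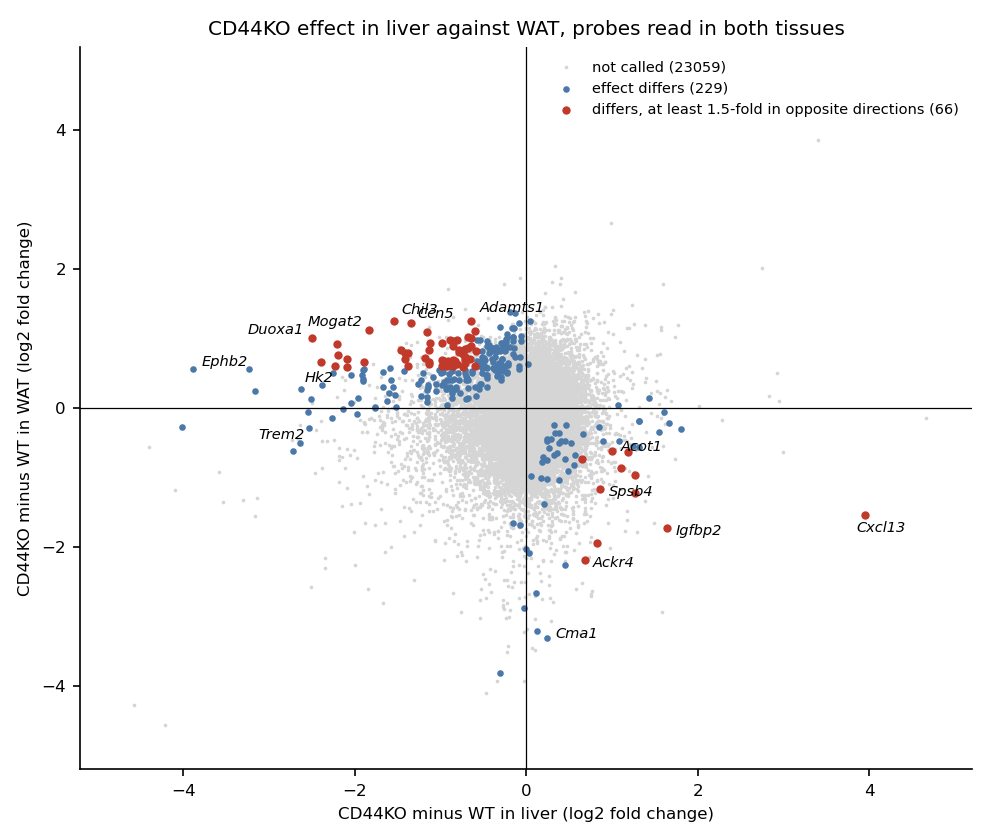
CD44KO minus WT in liver (x axis) against CD44KO minus WT in WAT (y axis), as log2 fold changes, for the 23354 probes read in both tissues. Grey points were not called, blue points had a called difference, and the 66 red points also changed at least 1.5-fold in opposite directions; 55 of these lie in the upper left and 11 in the lower right.

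The number of calls depended on single arrays and on the scaling. It ran from 84 to 582 when 1 array at a time was left out, and the opposite probes from 29 to 103. With the array median in place of the 75th percentile, 20 probes were called, 8 of them opposite. The median difference over all probes then moved from 0.13 to -0.34, and it was 0.23, -0.08 and 0.3 with a percentile over bright probes, quantile normalization and normexp background correction. The share of calls that were higher in liver than in WAT was 24.3%, and it was 40% with median scaling and 39.8% with normexp. Each of the 66 kept its opposite signs with each array left out, and 61 kept them under all 5 scalings tried. A smaller set of 76 probes of 68 symbols, 60 lower and 16 higher, was called in the fit of all 20 arrays and in each of the 20 fits without 1 array, and 29 of these were among the opposite probes. Of the 76, 3 were also called under all 5 scalings. The set was picked by leaving out arrays, so it holds there by definition, and it did not hold against the scaling. For the first probe given of each gene below, the number of those 20 fits that called it is stated where it was under 20.

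Several of the opposite probes read genes of the extracellular matrix and of vessel walls. Adamts1, a secreted protease that cuts proteoglycans, stood at 0.35, 0.39, 0.36, 0.46 and 0.31 in WT liver and at -0.24, -0.4, -0.05, -0.43 and -0.22 in CD44KO liver. In WAT it stood at 0.52, 0.92, 0.77, 0.52 and 0.94 in WT and at 2.34, 2.43, 2.04, 1.58 and 1.59 in CD44KO. Every CD44KO liver array lay below every WT liver array, and every CD44KO WAT array lay above every WT WAT array. Adamts1 (chr16:85790724-85790783) fell by 0.64 ± 0.16 in liver (limma adjusted p = 0.0392) and rose by 1.26 ± 0.16 in WAT (limma adjusted p = 0.000574), and its difference was -1.9 ± 0.22 (limma adjusted p = 0.0029, the lowest of all probes tested). The exact permutation p of this difference, two-sided, was 3.15e-05, the smallest that the 63504 relabellings allow. The relabellings shuffle genotype within each tissue, so they test for no CD44KO effect in either tissue, not for equal effects in both. Its other probe gave a difference of -1.74 and was called as well.

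Svep1, a large extracellular matrix protein, stood at -0.48, -0.99, -1.16, -1.17 and -1.01 in WT liver and at -2.68, -2.06, -1.66, -2.12 and -2.11 in CD44KO liver. Its levels in WAT were 3.06, 3.78, 3.1, 3.91 and 3.5 in WT and 4.75, 4.98, 4.69, 4.14 and 4.3 in CD44KO. The genotypes overlapped in neither tissue. Svep1 (chr4:58084237-58084296) fell by 1.16 ± 0.22 in liver and rose by 1.1 ± 0.22 in WAT, with a difference of -2.27 ± 0.31 (limma adjusted p = 0.00604). Of its other 3 probes, 1 was called at -1.92, and the others gave -0.83 and 1.18 without a call. Ccn5, a matricellular protein of the CCN family, fell by 1.35 ± 0.28 in liver and rose by 1.22 ± 0.28 in WAT, with a difference of -2.57 ± 0.4 (limma adjusted p = 0.0084). Its WAT groups did not overlap, while in liver they did.

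Some single genes that pericytes or smooth muscle cells express had differences of the same sign, most of them named after their values were seen. Pdgfrb, the receptor for platelet-derived growth factor on pericytes and stellate cells, stood at 2.04, 1.73, 1.71, 1.27 and 1.47 in WT liver and at 0.67, 0.8, 1.28, 0.49 and 0.82 in CD44KO liver. In WAT it stood at 3.29, 4.14, 3.82, 4.02 and 3.47 in WT and at 4.34, 4.71, 4.5, 4.2 and 4.37 in CD44KO. The CD44KO WAT arrays all lay above the WT WAT arrays, and in liver CD44KO liver 3 alone reached the lowest WT value. Pdgfrb fell by 0.83 ± 0.18 in liver and rose by 0.68 ± 0.18 in WAT, with a difference of -1.51 ± 0.26 (limma adjusted p = 0.014). Rgs5, a regulator of G-protein signalling made by pericytes, was at -0.87 to -0.73 in CD44KO liver and at -0.56 to 0.24 in WT liver, and at 1.47 to 2.77 in CD44KO WAT and 0.26 to 1.33 in WT WAT. Neither tissue showed an overlap, but neither effect passed its own test, and the difference of -1.59 ± 0.34 (limma adjusted p = 0.0326) was called in 12 of 20 fits without 1 array, with an adjusted p of 0.0707 at most. The other Rgs5 probe gave -1.5 without a call (limma adjusted p = 0.0722), and its WAT groups overlapped. Rgs5 belongs to a set of genes that were named after their values had been seen, together with Svep1, Gnai1, Slc24a3, Hey1, Rgs4, Acta2, Matn2, Adamts9, Vegfb, Fabp3, Hspb2, Cdkn2c, Cdkn1a, Igf1, Trdn and Cck.

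Within that set, Gnai1, an inhibitory G-protein alpha subunit, fell by 1.46 in liver and rose by 0.83 in WAT, with a difference of -2.29 ± 0.33 (limma adjusted p = 0.00604). Only 1 of the other 3 Gnai1 probes was called, at -2.1, and the others gave 0.69 and -0.73. Slc24a3, a sodium, calcium and potassium exchanger, fell by 1.12 in liver and rose by 0.93 in WAT, and Cdkn2c, an inhibitor of cyclin-dependent kinases, fell by 0.72 and rose by 0.65. Hey1, a target of Notch signalling, rose by 0.82 in WAT and was 0.76 lower in CD44KO liver without passing (limma adjusted p = 0.0591). Rgs4 fell by 0.85 in liver, and its WAT effect was 0.61, but its other probe gave a difference of 0.18 without a call. Acta2, the smooth muscle actin of activated stellate cells, had a called difference of -1.79 on 1 probe (10 of 20 fits), but its other 3 probes gave 0.41, -1.3 and 0.51 without a call, the first of them on the brightest probe. Tagln, another smooth muscle gene, fell by 0.8 in liver and had a called difference on both of its probes, -1.31 and -1.32. Pdgfrb and Tagln were the 2 genes called among 16 in the list of TGF-beta signalling and stellate cell activation, whose median effect was -0.35 in liver and -0.13 in WAT (0.39 in WAT with median scaling) and whose median difference was -0.26. In the means, 6 of the 16 were lower in CD44KO liver and higher in CD44KO WAT, beside 4319 of all 28989 probes tested, with 9092 the other way.

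Of 10 endothelial markers, 3 rose in WAT (Cdh5 by 0.89, Vwf by 0.65 and Cldn5 by 1.26), and none passed the limma test in liver, where no marker had an unadjusted p under 0.05. The difference between the tissues was called for 1 of the 10, with 2 lower and 1 higher at an unadjusted p under 0.05. In WAT, 3.57% of all probes were called higher and 2.11% lower. The summed endothelial level was 4.32 to 5.31 in WT WAT and 5.78 to 6.51 in CD44KO WAT, and 3.46 to 4.13 against 3.84 to 4.33 in liver. All 10 markers were well above background on all 20 arrays. The part of endothelial content in the WAT values was not tested. Of these markers, Vwf, von Willebrand factor, had a called difference of -0.96 (limma adjusted p = 0.0489), which held in 6 of 20 fits without 1 array, and its other probe gave -0.78 without a call.

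**Figure D2:**
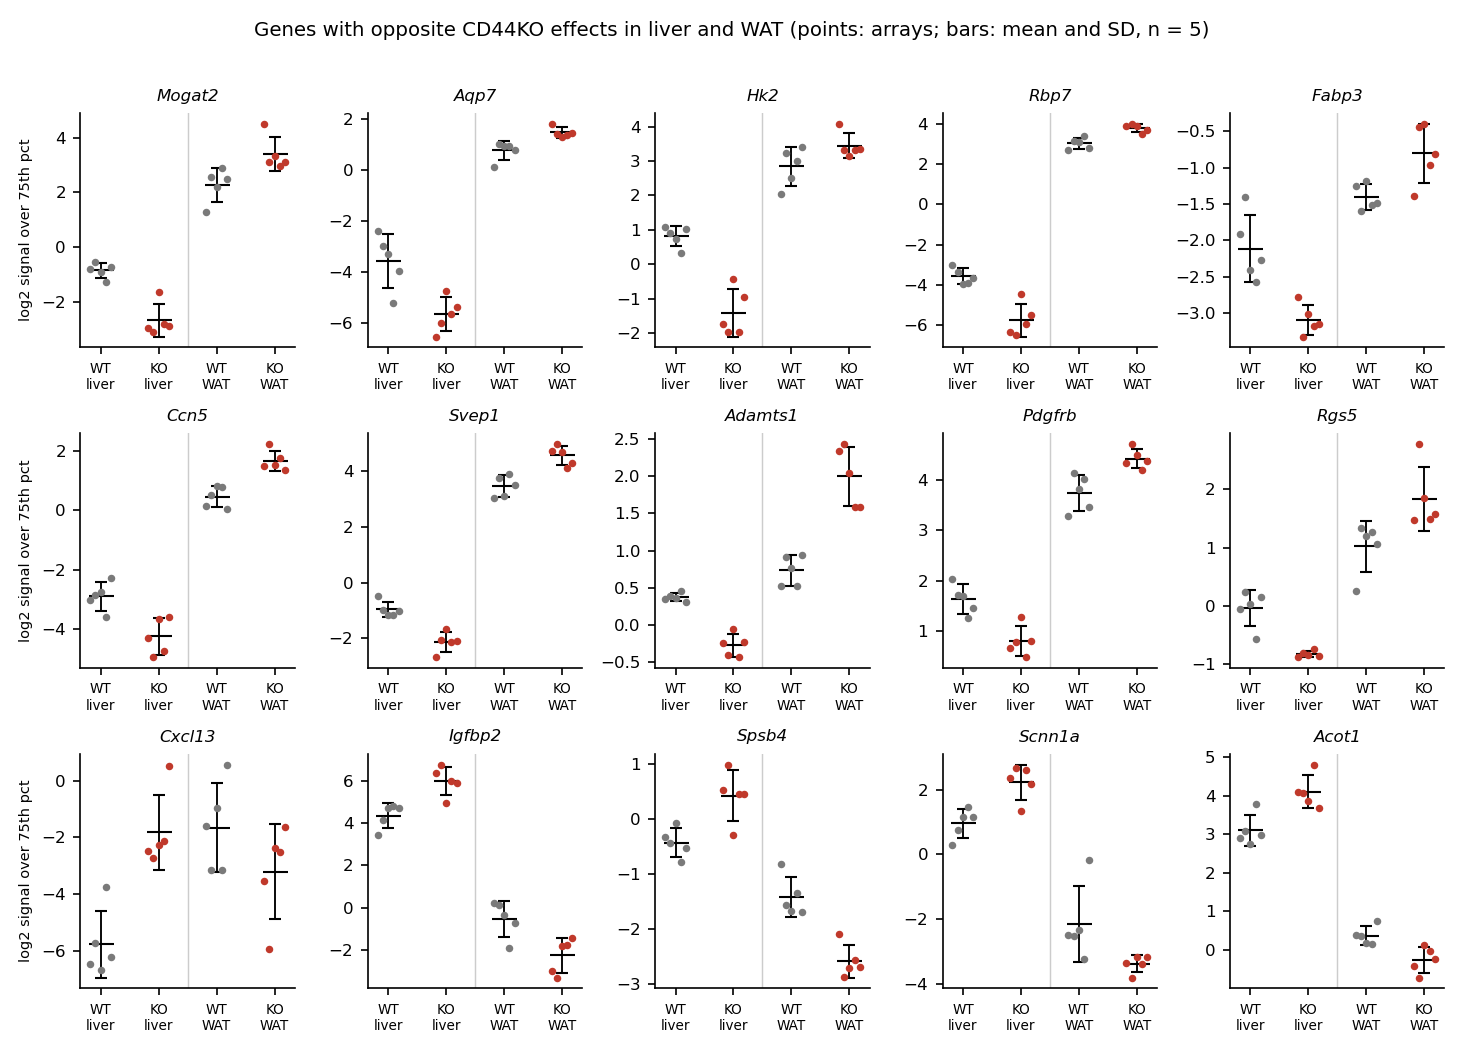
Log2 level (signal over the array's 75th percentile) of 15 genes with called differences and opposite effects in liver and WAT. Points are arrays, grey for WT and red for CD44KO, with 5 in each group, and bars show the mean and SD; Adamts1, Svep1, Mogat2, Rbp7 and Rgs5 do not overlap between genotypes in either tissue.

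Several other opposite probes read genes of lipid and glucose handling. Mogat2, a monoacylglycerol acyltransferase that builds diacylglycerol for triglyceride, stood at -0.8, -0.54, -0.93, -1.28 and -0.75 in WT liver and at -2.98, -3.11, -1.64, -2.81 and -2.9 in CD44KO liver. In WAT it stood at 1.27, 2.56, 2.2, 2.88 and 2.49 in WT and at 4.52, 3.12, 3.32, 2.96 and 3.12 in CD44KO. The genotypes overlapped in neither tissue, with CD44KO liver 3 the closest to WT. Mogat2 (chr7:95250993-95251052) fell by 1.83 ± 0.34 in liver (limma adjusted p = 0.00862), was 1.13 ± 0.34 higher in CD44KO WAT (limma adjusted p = 0.0542, not called) and differed by -2.96 ± 0.47 (limma adjusted p = 0.0084). It was the only gene of 16 in the triglyceride synthesis list that was called.

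Rbp7, a retinol-binding protein found in adipocytes and endothelium, stood at -3, -3.35, -3.94, -3.9 and -3.64 in WT liver and at -6.36, -6.53, -4.47, -5.95 and -5.52 in CD44KO liver. Its WAT levels were 2.7, 3.15, 3.12, 3.43 and 2.84 in WT and 3.92, 4.03, 3.89, 3.52 and 3.71 in CD44KO. The genotypes did not overlap in either tissue. Rbp7 (chr4:148439256-148439315) fell by 2.2 ± 0.3 in liver, while its WAT effect of 0.77 ± 0.3 did not pass (limma adjusted p = 0.127), and the difference was -2.97 ± 0.42 (limma adjusted p = 0.00604). In CD44KO liver, 1 of 5 arrays read this probe well above background, and the other Rbp7 probe gave -0.49 without a call.

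Hk2, the hexokinase of muscle and fat, stood at 1.09, 0.9, 0.74, 0.34 and 1.02 in WT liver and at -1.74, -1.97, -0.42, -1.98 and -0.96 in CD44KO liver. Its WAT levels were 2.05, 3.25, 2.52, 3 and 3.42 in WT and 4.09, 3.32, 3.16, 3.32 and 3.35 in CD44KO, which overlapped, while the liver groups did not. Hk2 fell by 2.23 ± 0.31 in liver, its WAT effect of 0.6 did not pass (limma adjusted p = 0.239), and the difference was -2.83 ± 0.44 (limma adjusted p = 0.00823). Aqp7, the glycerol channel of adipocytes, was read above background by no CD44KO liver array with its probe at chr4:41172673-41172732 and was at least 2.13-fold lower there than in WT liver (limma adjusted p = 0.0114). Its difference was -2.8 ± 0.57 (limma adjusted p = 0.0304), called in 13 of 20 fits without 1 array, and the second probe, which overlaps the first, gave -2.56 (8 of 20 fits). Fabp3, a fatty acid-binding protein of muscle and heart, fell by 0.98 in liver and was 0.6 higher in CD44KO WAT (limma adjusted p = 0.0949), with a called difference of -1.58 ± 0.3.

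Several metabolic genes had smaller differences that rested on few fits. Plin5, a lipid droplet coat protein, rose by 0.6 in WAT, was 0.34 lower in CD44KO liver and differed by -0.94 (limma adjusted p = 0.0422, 9 of 20 fits). Me1, the malic enzyme that makes NADPH for fatty acid synthesis, passed in neither tissue alone (-0.75 in liver, 0.79 in WAT) and differed by -1.55 (limma adjusted p = 0.0462, 3 of 20 fits). Pdk4, a kinase that switches off pyruvate dehydrogenase, likewise passed in neither tissue (-1.18 and 0.72) and differed by -1.9 (limma adjusted p = 0.0425, 7 of 20 fits). Lss, lanosterol synthase of the cholesterol pathway, rose by 1.15 in WAT and had a called difference of -1.33 in 4 of 20 fits, and its other 2 probes gave -0.67 and -0.36 without a call. Orm2, an orosomucoid of the acute phase, rose by 0.98 in WAT, was 0.81 lower in CD44KO liver and differed by -1.79 (limma adjusted p = 0.0362, 10 of 20 fits).

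The summed level of adipocyte markers was 6.54 to 6.91 in WT liver and 4.05 to 6.36 in CD44KO liver, highest on CD44KO liver 3, and 9.07 to 9.86 in WT WAT against 9.62 to 10.41 in CD44KO WAT. Of the 12 markers, Aqp7 and Cidec (by 2.12) fell in liver and Lep rose by 1.1 in WAT. Over all probes tested, 1.72% were called lower in liver and 3.57% higher in WAT. Of the 12 markers, 2 were well above background on no array of each liver group. Their part in the liver values was not tested.

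The remaining genes of this direction had varied roles. Duoxa1, a maturation factor of the dual oxidases, fell by 2.5 in liver and was 1.01 higher in CD44KO WAT (limma adjusted p = 0.109), with a difference of -3.51 ± 0.52 (limma adjusted p = 0.00734), but its other probe gave 1.01 without a call. This gene lies within 20 Mb of Cd44, as do 3 of the 334 called probes and 510 of those tested. Pkp1, a plakophilin of desmosomes, fell by 2.21 in liver and differed by -3.13 (limma adjusted p = 0.0168). Tnc, the matrix protein tenascin C, fell by 2.09 in liver, where CD44KO arrays lay at -6.42 to -3.98 and WT arrays at -3.85 to -2.76, and differed by -2.68 (limma adjusted p = 0.0326, 9 of 20 fits). Chil3, the chitinase-like protein Ym1 of macrophages, passed in neither tissue alone (-1.54 and 1.26) and differed by -2.8 (8 of 20 fits). Ccl7, a monocyte chemokine, fell by 2.39 in liver and differed by -3.05 (limma adjusted p = 0.0467) in only 4 of 20 fits, and its other probe gave -0.31. Gstm2, Matn2, Adamts9, Vegfb and Hspb2 had called differences between -1.4 and -1.76, each in 5 to 12 of the 20 fits. Without a call, other probes gave -0.69 and -1.44 for Adamts9, -0.71 for Vegfb and 0 for Hspb2. Cela1, an elastase, had called differences of -2.21 (limma adjusted p = 0.0464, 4 of 20 fits) and -2.11 on its 2 probes.

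Fewer genes went up in CD44KO liver and down in CD44KO WAT. Igfbp2, a binding protein for insulin-like growth factors that the liver secretes, stood at 3.42, 4.16, 4.71, 4.8 and 4.69 in WT liver and at 6.37, 6.76, 4.97, 5.97 and 5.88 in CD44KO liver. In WAT it stood at 0.23, 0.14, -0.36, -1.9 and -0.7 in WT and at -2.98, -3.3, -1.8, -1.75 and -1.42 in CD44KO. The liver groups did not overlap, and in WAT the WT WAT 4 array lay within the CD44KO range. Igfbp2 (chr1:73093964-73094023) fell by 1.73 ± 0.45 in WAT, was 1.64 ± 0.45 higher in CD44KO liver (limma adjusted p = 0.0675, not called) and differed by 3.37 ± 0.63 (limma adjusted p = 0.0201).

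Spsb4, a SOCS-box adaptor of an E3 ubiquitin ligase, stood at -0.33, -0.44, -0.08, -0.79 and -0.52 in WT liver and at 0.52, 0.99, -0.29, 0.46 and 0.46 in CD44KO liver. Its WAT levels were -0.82, -1.56, -1.68, -1.34 and -1.7 in WT and -2.1, -2.88, -2.71, -2.57 and -2.7 in CD44KO. Apart from CD44KO liver 3, which fell among the WT values, the genotypes did not overlap. Spsb4 rose by 0.86 ± 0.22 in liver and fell by 1.17 ± 0.22 in WAT, with a difference of 2.04 ± 0.31 (limma adjusted p = 0.00823). Acot1, an acyl-CoA thioesterase of fatty acid oxidation, rose by 1 ± 0.22 in liver and was 0.62 lower in CD44KO WAT (limma adjusted p = 0.106), with a difference of 1.62 ± 0.32 (limma adjusted p = 0.0255, 18 of 20 fits). Of the 25 genes for fatty acid oxidation and ketogenesis, 8 rose in WAT and Acot1 alone rose in liver. Over all probes tested, 3.57% were called higher in WAT and 0.479% in liver. The list's median difference was -0.15, and its called differences were 1 higher (Acot1) and 1 lower (Pdk4).

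Cxcl13, the chemokine that draws B cells through CXCR5, had the largest difference of all probes tested. It stood at -6.46, -5.74, -6.69, -3.75 and -6.22 in WT liver, where 1 of 5 arrays was well above background, and at -2.49, -2.74, -2.29, -2.15 and 0.52 in CD44KO liver. Its WAT levels were -1.6, -3.16, -0.96, -3.17 and 0.56 in WT and -3.55, -5.94, -2.39, -2.53 and -1.64 in CD44KO. Its liver groups did not overlap and its WAT groups did. Cxcl13 rose by 3.95 ± 0.87 in liver (limma adjusted p = 0.0228), its WAT effect of -1.54 ± 0.87 did not pass (limma adjusted p = 0.281), and the difference of 5.49 ± 1.23 (limma adjusted p = 0.042) was called in 9 of 20 fits without 1 array. Markers of B and plasma cells summed to 0.53 to 1.61 in WT liver and 0.37 to 1.15 in CD44KO liver, and to 1.47 to 5.47 in WT WAT and 0.56 to 2.22 in CD44KO WAT, and 1 of the 9 tested (Cd22) fell in WAT. Their part in the Cxcl13 values was not tested.

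Ackr4, a receptor that scavenges the chemokines of lymphoid tissue, fell by 2.19 ± 0.38 in WAT and was 0.68 higher in CD44KO liver, with a difference of 2.86 ± 0.54 (limma adjusted p = 0.0201), and its genotypes overlapped in neither tissue. Scnn1a, the alpha subunit of the epithelial sodium channel, passed in neither tissue alone (1.27 in liver, -1.23 in WAT) and differed by 2.5 (limma adjusted p = 0.0468) in 5 of 20 fits. Matn4, Itch, Angpt4 and Ecm1 had called differences of 2.76, 1.97, 1.82 and 1.39 in 3 to 8 of the 20 fits. The other 3 Itch probes gave -0.05, 1.65 and 1.45 without a call. The other Angpt4 probe gave 0.92 without a call, with a liver effect of -0.49. The other Ecm1 probe, which was brighter, gave 0.67 without a call.

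A separate class of probes was read in WAT and on no liver array, so a movement in opposite directions could not be read from them. Another probe of the same gene could still be read in both tissues, as for Cma1 and Vwc2. A probe was placed there when 3 or more of the 5 arrays of a WAT group, and no liver array, read it well above background. Of 2563 such probes, 26 (1.01%) had a called difference, with 15 lower and 11 higher in CD44KO WAT. The liver value of such a probe is background, so its difference is in substance the WAT effect.

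Genes of mast cells were among those that fell in CD44KO WAT. Cma1, mast cell chymase, stood at 2.52, 2.46, 1.8, 0.97 and 1.34 in WT WAT and at -2.79, -4.63, -0.93, -0.54 and -0.72 in CD44KO WAT by its probe at chr14:50810007-50811066. No CD44KO WAT array reached the lowest WT value, and CD44KO WAT 1 and 2 were the lowest. Cma1 fell 13.4-fold in WAT (limma adjusted p = 0.00366), and its difference of 3.5 ± 0.83 (limma adjusted p = 0.0488) was called in 7 of 20 fits without 1 array. A second Cma1 probe, read in both tissues, gave 3.56, also called in 7 of 20 fits. Tpsab1, mast cell tryptase, was well above background on all 5 WT WAT arrays and no CD44KO WAT array, so that it was at least 5.26-fold lower (limma adjusted p = 0.00105), with a difference of 3.11 (limma adjusted p = 0.0326, 10 of 20 fits). Mrgprb1, a Mas-related receptor of mast cells, was likewise read on all 5 WT WAT arrays and no CD44KO WAT array, and it was at least 4.22-fold lower with a difference of 3.37 (limma adjusted p = 0.0153). Tph1, which makes serotonin from tryptophan outside the brain, stood at -2.12, -4.19, -4.92, -6.06 and -5.77 in WT WAT and at -8.36, -8.52, -8.72, -8.13 and -8.52 in CD44KO WAT. It was well above background on 4 of 5 WT WAT arrays and no CD44KO WAT array, and it was at least 3.43-fold lower (limma adjusted p = 0.000767) with a difference of 3.87. Its second probe was called at 3.56.

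Over the mast cell list, 10 of 11 genes fell in WAT, where 2.11% of all probes were called lower, and none passed in liver, where none had an unadjusted p under 0.05. Their summed level was 4.29 to 5.58 in WT WAT and 0.79 to 3.53 in CD44KO WAT, with the lowest values of 0.94 and 0.79 on CD44KO WAT 1 and 2. In liver it was 0.1 to 0.72 in WT and 0.04 to 0.49 in CD44KO. The difference was called for 4 of the 11, namely Tpsab1, Cma1, Prss34 (2.85 ± 0.42, limma adjusted p = 0.00734) and Fcer1a (2.78 ± 0.58, limma adjusted p = 0.0307, 11 of 20 fits), a mast cell and basophil protease and the alpha chain of the IgE receptor. The list's median difference was 2.85, beside 0.13 over all probes tested.

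Genes outside that list followed the same pattern. Thbs4, a thrombospondin of the matrix, stood at -1.46, -1.69, -1.17, -0.6 and -3.19 in WT WAT and at -4.81, -4.83, -4.4, -4.73 and -4.86 in CD44KO WAT. The groups did not overlap. Thbs4 (chr13:89814004-89814063) fell 8.59-fold in WAT (limma adjusted p = 0.000146), with a difference of 3.37 ± 0.48 (limma adjusted p = 0.00604), while its other probe gave 1.2 without a call. Vwc2, a secreted antagonist of bone morphogenetic proteins, fell 8.55-fold in WAT and differed by 2.73 (limma adjusted p = 0.0084), and its other probe gave 0.83. Lgals7, a galectin of stratified epithelia, and Atp6v0a4, a subunit of the vacuolar proton pump, fell 4.41-fold and at least 2.26-fold in WAT. The Lgals7 difference was called in 5 of 20 fits. The Atp6v0a4 difference was called in 5 of the 17 fits that tested it. Only WT WAT 1, 3 and 5 read Atp6v0a4 well above background, and no CD44KO WAT array did, so without any of those 3, among them the array that stood apart, the probe was not tested.

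Mesothelial markers moved with these genes. Of 11, 9 fell in WAT, where 2.11% of all probes were called lower. The summed WAT level of the 11 markers was 1.99 to 4.31 in WT and 0.76 to 2.47 in CD44KO. Among them Upk3b fell by 2.7, Lrrn4 by 2.54 and Gpm6a by 2.06. No mesothelial difference was called by limma, although 9 were higher and 1 lower at an unadjusted p under 0.05, and the median difference was 2. Their liver sum was 8.23 to 8.77 in WT and 7.69 to 8.38 in CD44KO. Of the 11, 5 were well above background on all 5 arrays of each liver group and 4 on no array. The part of mesothelial cells in the liver sum was not tested. The part of mesothelial content in the WAT values was not tested.

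Among the 11 probes of this class that were higher in CD44KO WAT, 2 genes were named after their values were seen. Trdn, triadin of the calcium release complex of striated muscle, stood at -2.21, -1.59, -1.39, -1.71 and -2.52 in WT WAT and at 0.47, 0.95, 0.15, -0.39 and -0.1 in CD44KO WAT. Cck, the peptide cholecystokinin, stood at -1.56, -1.39, -0.84, -1.01 and -0.09 in WT WAT and at 2.27, 1, 0.91, 1.05 and 0.95 in CD44KO WAT. Neither gene overlapped between genotypes. Trdn rose 4.29-fold in WAT with a difference of -2.08 (limma adjusted p = 0.0084) and a second called probe at -1.76, and Cck rose 4.64-fold with a difference of -2.36 (limma adjusted p = 0.0183). Markers of skeletal muscle summed to 1.03 to 2.26 in WT WAT and 1.22 to 1.45 in CD44KO WAT.

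**Figure D3:**
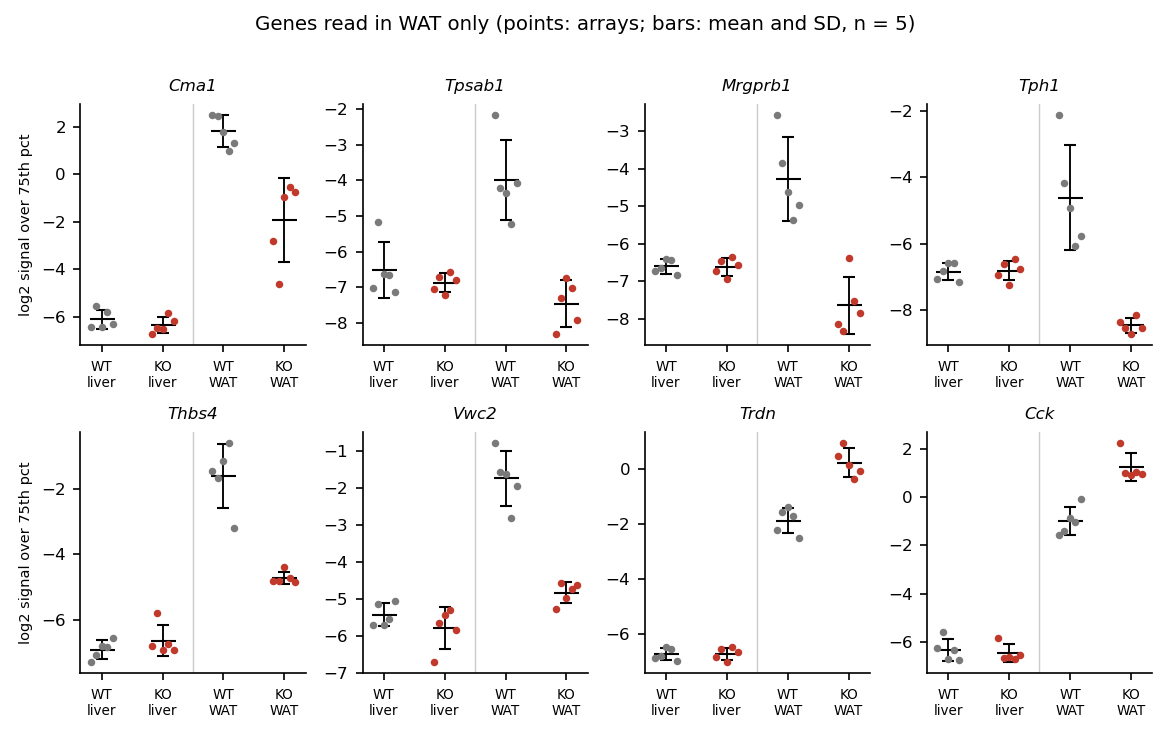
Log2 level (signal over the array's 75th percentile) of 8 genes, each by a probe read well above background in WAT and on no liver array. Points are arrays, grey for WT and red for CD44KO, and bars show the mean and SD of 5; Cma1, Tpsab1, Mrgprb1, Tph1, Thbs4 and Vwc2 are lower, and Trdn and Cck higher, on every CD44KO WAT array than on any WT WAT array.

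No probe read in liver only was called by limma. Only 96 such probes were tested, 15 of them with an unadjusted p under 0.05, all higher in liver. At that threshold, the difference of 2377 of all 28989 probes tested was lower and that of 2193 higher. The WT WAT 1 array read many probes that the other WAT arrays did not, and without it 468 probes counted as read in liver only, of which 7 were called. Among these 7, Serpina12, the adipokine vaspin, had a difference of -2.55 and a liver effect of -2.17, and Bmp8b, a bone morphogenetic protein, had a difference of -2.71 and a liver effect of -2.91. In the fit of all arrays, the lowest adjusted p among liver-only probes belonged to Cyp2g1, a cytochrome P450 (difference 2.24, limma adjusted p = 0.13), followed by Cyp4a31 at 2.42 and Hao2, a hydroxy acid oxidase, at 2.37. Clec2h, Krtap19-9b, Amer2, Vmn1r63 and Esrrb completed the 8 of lowest p, with differences of 1.25 to 2.93. The WAT values of these probes are background. Without WT WAT 1 the difference was 1.69 for Cyp2g1, 0.89 for Krtap19-9b and 1.17 for Esrrb, the last down from 1.94.

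Other called differences came from genes read in both tissues that changed in 1 of them. Ephb2, a receptor for ephrin-B ligands, stood at 0.98, 0.81, 0.47, -1.54 and 0.08 in WT liver and at -5.81, -3.14, -2.57, -3.57 and -3.57 in CD44KO liver, and at -0.45 to 0.84 over all WAT arrays. Its liver groups did not overlap. Ephb2 fell 14.9-fold in liver (limma adjusted p = 0.000588), and its difference of -4.45 ± 0.7 (limma adjusted p = 0.0084) was the largest in the lower direction among named probes read in both tissues, while its other probe gave -1.42 without a call. Ubd, a ubiquitin-like protein induced by inflammation, and Sdcbp2, a syntenin, fell by 3.23 and 4.02 in liver and had differences of -3.79 and -3.74, each in 11 of 20 fits. Mtmr11 and Dele1 fell by 3.16 and 2.63 in liver, with called differences in 10 and 4 of 20 fits. The other 2 Dele1 probes gave -1.77 and 0.11 without a call, the latter on a probe read on all 20 arrays. Trem2, a lipid-sensing receptor of macrophages, fell by 2.53 in liver against -0.29 in WAT, and both of its probes were called (-2.24 and -2.13, the first in 6 of 20 fits). Of the 16 macrophage markers, to which Trem2 belongs, 7 fell in liver (median effect -0.68) and none passed the limma test in WAT, where 2 were lower at an unadjusted p under 0.05. Of all 28989 probes tested, 1.72% were called lower in liver, and 3416 were lower and 3669 higher in WAT at that unadjusted threshold. The part of macrophage content in the Trem2 and Chil3 values was not tested.

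Cdkn1a, the cyclin-dependent kinase inhibitor p21, stood at 0.41, -0.07, -0.47, -0.34 and -0.31 in WT liver and at -2.91, -2.52, -1.28, -2.52 and -1.78 in CD44KO liver. In WAT, both genotypes lay between 0.16 and 0.63. Cdkn1a fell by 2.05 in liver without overlap, with a difference of -2.12 ± 0.35 (limma adjusted p = 0.0084), and Eda2r and Phlda3, which like Cdkn1a are known targets of p53 and were picked after their values were seen, had called differences of -2.64 and -2.28. Igf1, insulin-like growth factor 1, rose by 1.67 in liver and differed by 1.87 (limma adjusted p = 0.00961) on 1 of its 3 probes, and the other 2 gave -0.03 and 0.12, so the gene's direction is uncertain.

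As whole groups, the lists with the lowest median differences were those of matrix, cell division and lipid storage. Beside them, over all probes tested, the median difference was 0.13, the median liver effect 0.06 and the median WAT effect -0.08, and 1.72% of probes were called lower and 0.479% higher in liver. In the means, 4319 of the 28989 probes tested were lower in CD44KO liver and higher in CD44KO WAT, and 9092 went the other way. Collagens had a median effect of -0.67 in liver and 0.33 in WAT, and 13 of 18 were lower in CD44KO liver and higher in CD44KO WAT in the means. Their summed level was not lower in CD44KO liver, at 7.91 to 8.1 against 7.9 to 8.06 in WT liver. In WT liver, Col3a1 stood at 2.95 to 3.92 and Col1a1 at 2.03 to 3.49, far below this sum. The sum therefore cannot show whether Col3a1 and Col1a1 fell. In WAT the collagen sum was 8.86 to 9.03 in CD44KO and 8.27 to 9.2 in WT. In liver, 7 of the 18 fell, and in WAT none passed the limma test, with 5 higher and 1 lower at an unadjusted p under 0.05. The difference was called for Col1a1 (-2.71), Col3a1 (-1.81), Col6a3 (-1.96), Col15a1 (-1.6) and Col16a1 (-1.14). Col6a3 was called in each of the 20 fits without 1 array and the other 4 in 3 to 9 of them, and without WT WAT 1 Col6a3 and Col15a1 remained. Other probes of these 5 genes gave weaker or positive differences (0.88 for Col6a3, 1.07 for Col16a1), none of them called. Col1a1, the main fibrillar collagen, stood at 2.03 to 3.49 in WT liver and at -0.33, -0.92, 2.3, -0.39 and 0.86 in CD44KO liver, where CD44KO liver 3 lay within the WT range.

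Other matrix lists had members on both sides. Among 20 matrix metalloproteinases, their inhibitors and related proteases, 5 fell in liver (Mmp13 by 3.58), and Adamts1 and Adamts5 rose in WAT while Mmp19 fell there. Adamts5, which cuts aggrecan, had a called difference of -1.21 (5 of 20 fits). Among 24 matricellular proteins, Tnc and Thbs2 (-1.54, 5 of 20 fits) had called differences below 0, whereas Thbs4 had one above 0. Among 18 integrins, Itga1 and Itgb4 rose in WAT by 0.78 and 0.55 and had called differences of -0.93 and -0.81, the latter in 7 of 20 fits. Other Itga1 probes gave -1.12 with a call and -0.38 and 0.51 without. Other Itgb4 probes gave -0.73 and 1.34 without a call. Each of these lists was chosen with earlier results of these data known.

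Genes of cell division and DNA replication were lower in CD44KO liver, and those in WAT lay near their WT level. In liver, 13 of 24 fell, Ccnb1 by 1.83 and Cdc20 by 1.51 among them, while in WAT none passed and none had an unadjusted p under 0.05. The median effect was -0.9 in liver and -0.05 in WAT (0.43 in WAT with median scaling, which moved all probes up there). No difference of this list was called by limma, although 15 had an unadjusted p under 0.05, all lower in liver.

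In the lipid lists, the medians lay on opposite sides of 0, but few single genes passed. Fatty acid synthesis had a median effect of -0.4 in liver and 0.52 in WAT. Of its 18 genes, 12 were lower in CD44KO liver and higher in CD44KO WAT, beside 4319 of all 28989 probes tested, with 9092 the other way. In liver none of the 18 passed the limma test (6 were lower and 2 higher at an unadjusted p under 0.05), and in WAT Mlxipl, the carbohydrate response factor ChREBP, rose by 0.94. Lipid droplet proteins had medians of -0.35 and 0.34, with Plin4 and Cidec falling in liver and Plin5 and Fitm2 rising in WAT. Cholesterol synthesis and uptake had medians of -0.22 and 0.39, and 18 of 25 genes were lower in liver and higher in WAT. Members that rose in WAT included Lss and Sc5d. These median differences kept their sign without WT WAT 1 and under the other 4 scalings.

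Lists of immunity did not separate the tissues in the same way. Of 23 interferon-induced genes, 11 fell in liver, and 3 (Ifit1, Irf7 and Oas1a) fell in WAT. Their median effect was -0.91 in liver and -0.56 in WAT (-0.08 in WAT with median scaling). The difference was called for Ifi27l2a, which fell by 1.91 in liver and stood 0.42 higher in CD44KO WAT, on both of its probes (-2.34 and -2.75). MHC class II genes had medians of -0.95 and -0.75, with 4 of 10 falling in liver. Kupffer cell markers had a median of 1.14 in liver and -0.4 in WAT (0.08 in WAT with median scaling), and Timd4 and Marco, scavenger receptors of resident liver macrophages, rose by 2.99 and 2.95 in liver. None of the 7 Kupffer differences was called by limma, and 4 had an unadjusted p under 0.05, all higher in liver. As a reference, ribosomal protein genes had medians of 0.18 and 0.08, and none passed in any of the comparisons, with 1 of 20 at an unadjusted p under 0.05 for the difference.

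**Figure D4:**
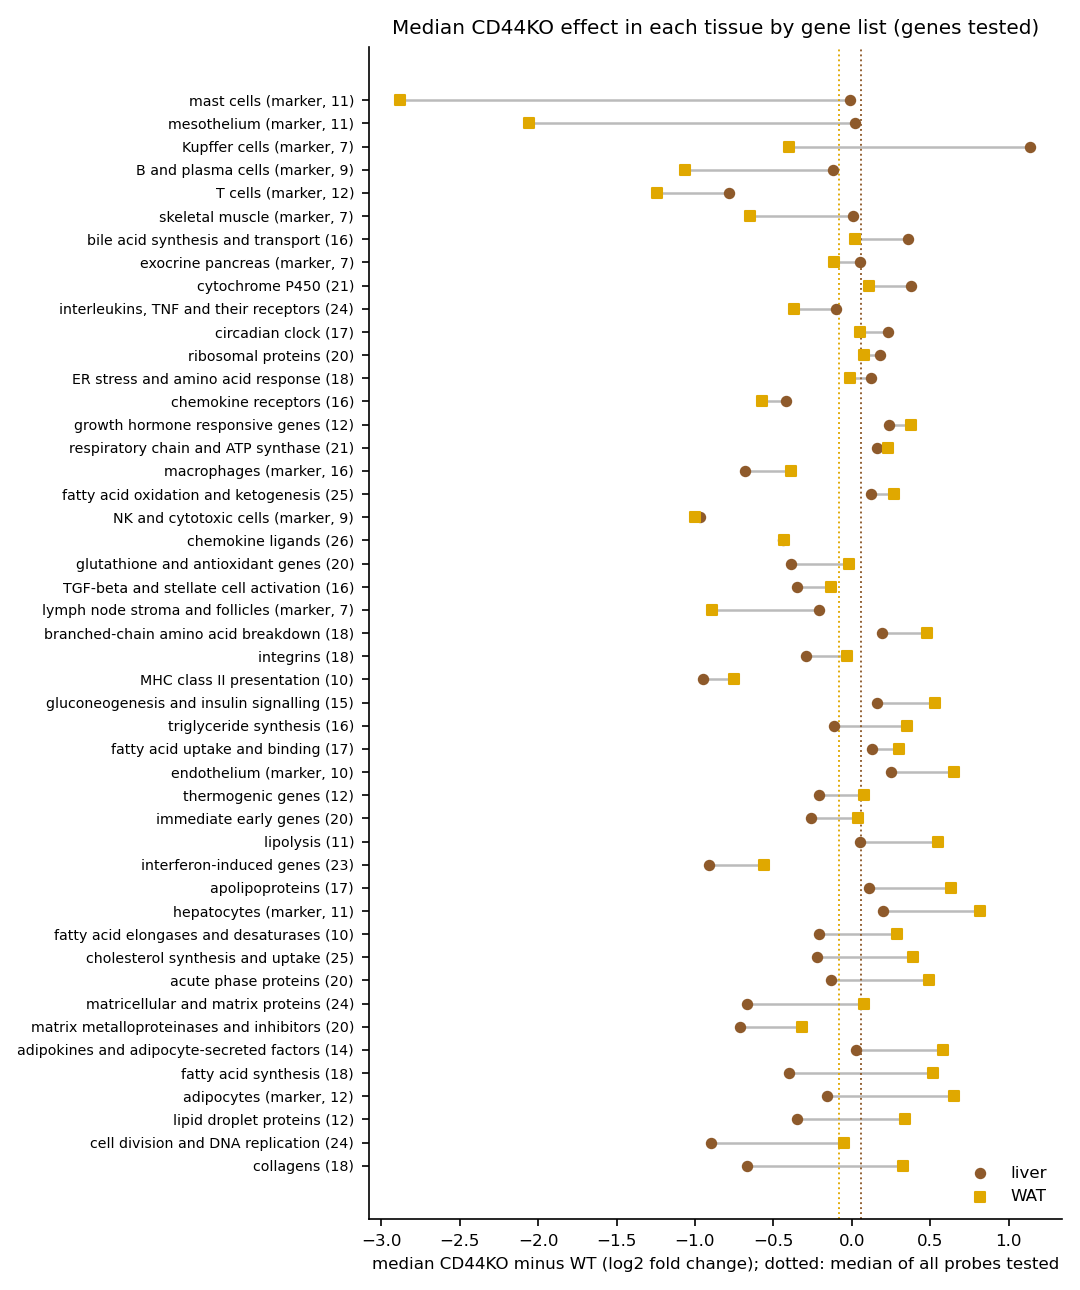
Median CD44KO effect (log2 fold change) of each gene list with at least 7 genes tested, in liver (circles) and in WAT (squares), joined by a line. Dotted lines mark the medians of all probes tested, 0.06 in liver and -0.08 in WAT; collagens, cell division and lipid droplet proteins lie to the left in liver, and mast cell and mesothelial markers lie to the left in WAT.

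Single arrays on both sides moved the number of calls. The count of 334 fell to 84 without WT liver 1, 105 without WT liver 2, 140 without WT liver 3 and 121 without WT liver 5. It fell to 87, 98, 96 and 151 without CD44KO liver 1, 2, 4 and 5, and rose to 582 without CD44KO liver 3. Among WAT arrays, it was 174 without WT WAT 3, 116 without CD44KO WAT 1 and 147 without CD44KO WAT 2, and 508 without WT WAT 4. Without the other 7 arrays it was 228 to 436. The 66 opposite probes became 29 to 42 without any of the arrays named here that lowered the whole count and 103 without CD44KO liver 3. The called probes read in 1 tissue only, 26 in the fit of all arrays, became 9 to 17 without the liver arrays that lowered the whole count or CD44KO WAT 1 or 2, and 67 without WT WAT 4. Without WT WAT 1 there were 49, of which 42 were read in WAT only and 7 in liver only. Without WT WAT 1, the array that stood apart, 366 probes were called, of which 264 were shared, and 55 of the 66 opposite probes were still called.

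**Figure D5:**
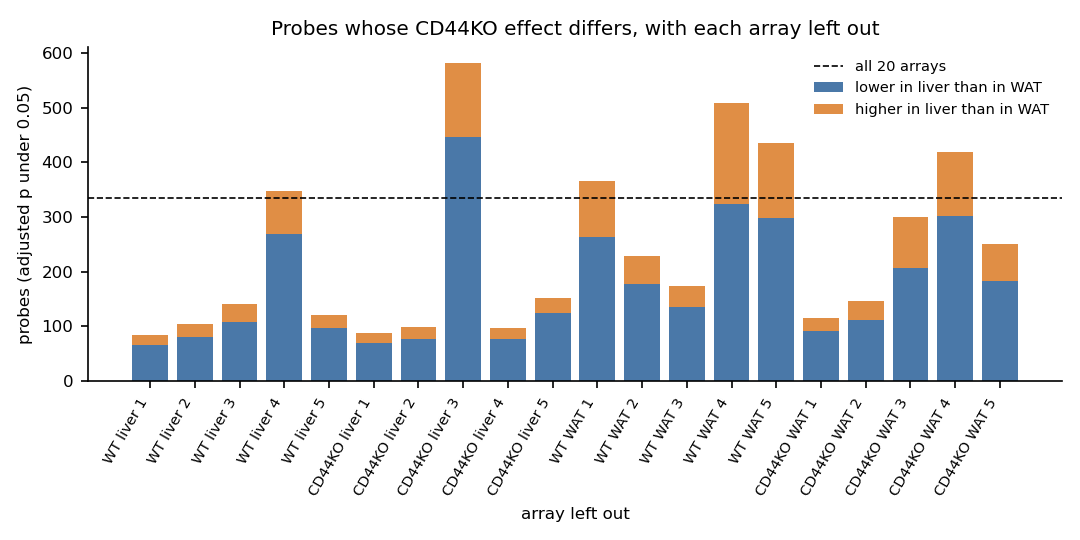
Number of probes with a called difference (y axis) in the 20 fits that each leave out 1 array (x axis). Bars are stacked by direction, lower or higher in liver than in WAT, with a dashed line at the 334 probes of the fit of all arrays. The count is lowest without WT liver 1 (84) and highest without CD44KO liver 3 (582).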

How the data were processed

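RNA from liver and WAT was hybridised to 20 Agilent 44k mouse arrays with the single dye Cy3. The members, gene lists and named genes were chosen with earlier results of these data known. The deposited intensity of a spot is the signal as processed by Agilent Feature Extraction 9.5, which the authors ran. It had removed a spatial surface and a multiplicative trend from each array without subtracting the local background, and gave dim spots a surrogate value. No scaling between arrays had been applied, and the deposited series table equals this signal.

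From these intensities, log2 values were computed, and the 75th percentile of each array over non-control spots was subtracted. Outlier-marked and control spots were dropped, and spots of 1 probe were averaged, giving 41174 probes. The test covered the 28989 probes that 3 or more of the 5 arrays of some group read well above background. A probe was read in a tissue by the same rule, and in 1 tissue only where no array of the other tissue read it. Dim values are surrogate estimates, so a change towards background is understated, and a lower bound was given where no array of a group was above background. The bound sets the mean of the brighter group against the mean, over the dimmer arrays, of the lowest signal among probes well above background or the probe's own if higher. One gene in a list was read by its brightest probe. Symbols came from a RefSeq table matched by accession (23075 probes) or from the files, and positions are those of the files, in build mm7. No genome of that build was used here, so exon and UTR annotation is not given.

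limma 3.58.1 in R 4.3.3 fitted the 4 groups together with a common spread (lmFit and eBayes), the contrast was the liver effect minus the WAT effect, and p-values were adjusted by Benjamini-Hochberg over all probes tested. Single values were also tested by exact permutation of genotypes within tissue, two-sided, over 63504 relabellings and with no adjustment over the 92 named probes. The named genes were the opposite probes of largest difference (up to 10 symbols each way), the one-tissue and the remaining called probes of largest difference (up to 8 symbols each) and called members of the 34 pathway and 17 marker lists, and genes added later are marked in the text. The script was tested on simulated data. Alternatives were another background correction, scaling, filter, floor, slide or replicate block, array weights and leaving out each array. A member of the cholesterol list is not reported here by name.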

Additional observations from a re-analysis of the deposited data

Results flagged for a closer look

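In 32 of 336 groups of 5 arrays looked at, 1 array stood far from the other 4 of its group, by a gap of over 0.71 of the group's range. Chance gives about 1 in 20 groups. The array set apart most often was WT WAT 1, in 9 groups. On WT WAT 1, Aqp7 (0.1, nearest 0.78), Ephb2 (-0.45, nearest -0.14), Orm2 (0.01, nearest 0.81), Gstm2 (3.17, nearest 3.75), Gpx4 (4.6, nearest 5.13), Itga1 (-2.21, nearest -1.81), Gnai1 (1.37, nearest 2.17) and Rgs5 (0.26, nearest 1.06) were the lowest of their group. On the same array, Cd44 by its probe that showed no loss (-3.68, nearest -6.37) was the highest. On CD44KO WAT 1, Duoxa1 (3.01, nearest 2.01), Mogat2 (4.52, nearest 3.32), Hk2 (4.09, nearest 3.35) and Cck (2.27, nearest 1.05) were the highest. On CD44KO WAT 2, Col15a1 (2.23, nearest 2.91) was the lowest of the group. On the same array, Adamts9 (1.86, nearest 0.53) and Rgs5 (2.77, nearest 1.84) were the highest. On the other liver arrays, the lone low values were Cd44 by that same probe on CD44KO liver 1 (-6.66, nearest -4.61), Pkp1 on WT liver 4 (-3.59, nearest -2.76), Cma1 on WT liver 5 (-5.42, nearest -3.28), Itgb4 on WT liver 3 (-2.33, nearest -1.74) and Ifi27l2a on WT liver 4 (3.1, nearest 3.51). On the other liver arrays, the lone high values were Mogat2 on CD44KO liver 3 (-1.64, nearest -2.81), Cxcl13 on CD44KO liver 5 (0.52, nearest -2.15), Ackr4 on CD44KO liver 5 (-2.7, nearest -3.46), Thbs4 on CD44KO liver 2 (-5.8, nearest -6.74), Tpsab1 on WT liver 2 (-5.16, nearest -6.63), Cela1 on CD44KO liver 2 (-0.96, nearest -2.21), Cck on CD44KO liver 1 (-5.82, nearest -6.56) and Svep1 on WT liver 1 (-0.48, nearest -0.99). On the other WAT arrays, the lone high values were Pkp1 on WT WAT 4 (-2.24, nearest -3.16), Scnn1a on WT WAT 5 (-0.16, nearest -2.35) and Thbs4 on CD44KO WAT 3 (-4.4, nearest -4.73).

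For the probes called in the report, the CD44KO effect differed between liver and WAT by the test of the difference itself. They are grouped here by what the genes are known for. Among genes of the extracellular matrix and its proteases, the difference, liver minus WAT on the log2 scale, was -2.68 for Tnc, -2.57 for Ccn5, -2.27 for Svep1, -1.76 for Matn2, -1.54 for Thbs2, -2.71 for Col1a1, -1.81 for Col3a1, -1.96 for Col6a3, -1.6 for Col15a1, -1.14 for Col16a1, -1.9 for Adamts1, -1.21 for Adamts5 and -1.66 for Adamts9. Among genes of vessel walls, contractile cells and their signalling, it was -1.51 for Pdgfrb, -1.46 for Rgs4, -1.59 for Rgs5, -1.59 for Hey1, -1.18 for Acta1, -1.79 for Acta2, -1.31 for Tagln, -0.96 for Vwf, -1.64 for Vegfb, -1.55 for Hspb2, -2.05 for Slc24a3 and -2.29 for Gnai1. Among genes of lipid and glucose metabolism, it was -2.96 for Mogat2, -2.8 and -2.56 for Aqp7 on its 2 probes, -2.83 for Hk2, -2.97 for Rbp7, -1.58 for Fabp3, -0.94 for Plin5, -1.55 for Me1, -1.9 for Pdk4 and -1.33 for Lss. Among genes of inflammation and the acute phase, it was -3.79 for Ubd, -3.05 for Ccl7, -2.8 for Chil3, -2.24 for Trem2, -2.34 for Ifi27l2a and -1.79 for Orm2. Among genes of glutathione metabolism, early response and the cell cycle, it was -1.4 for Gstm2, -1.11 for Gstm3, -1.17 for Gpx4, -1.58 for Btg2, -1.38 for Klf6, -2.12 for Cdkn1a and -1.37 for Cdkn2c. Among genes of adhesion and cell contact, it was -4.45 for Ephb2, -3.74 for Sdcbp2, -3.13 for Pkp1, -0.93 for Itga1 and -0.81 for Itgb4. For the remaining probes on this side, it was -3.51 for Duoxa1, -3.4 for Mtmr11, -2.91 for Dele1, -2.21 for Cela1, -2.36 for Cck and -2.08 for Trdn. Some genes have their difference given only here. Of these, Klf6 was called in 4 of 20 fits without 1 array, Acta1 in 5, Gstm3 in 9, Gpx4 in 11 and Btg2 in 12. Without a call, other probes gave -0.46 for Klf6 and -0.97 and -0.74 for Btg2. On the other side, with an effect higher in liver than in WAT, the difference of genes of mast cells or read in WAT only was 3.5 and 3.56 for Cma1 on its 2 probes, 3.11 for Tpsab1, 2.85 for Prss34, 2.78 for Fcer1a, 3.37 for Mrgprb1, 3.87 for Tph1, 3.37 for Thbs4, 2.73 for Vwc2, 2.37 for Lgals7 and 2.83 for Atp6v0a4. For genes read in both tissues, it was 5.49 for Cxcl13, 3.37 for Igfbp2, 2.86 for Ackr4, 2.76 for Matn4, 2.5 for Scnn1a, 2.04 for Spsb4, 1.97 for Itch, 1.87 for Igf1, 1.82 for Angpt4, 1.62 for Acot1 and 1.39 for Ecm1.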

How the results depend on the processing

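The probes called for a difference, those changed in opposite directions and those read in 1 tissue only numbered 334, 66 and 26. Leaving out each array gave 84 to 582, 29 to 103 and 9 to 67. Median scaling gave 20, 8 and 9, no filter on dim probes 77, 29 and 8, array weights per tissue 57, 18 and 7, and the 75th percentile over bright probes 40 opposite probes. The cause of these shifts was not tested. Without a filter, 41174 probes shared the adjustment, and 4470 had an unadjusted p under 0.05. With the filter these numbers were 28989 and 4570. Slide as a fixed block gave 621 and 52 for the first and last count, with 44.9% higher in liver than in WAT, and array weights per array gave 2438 and 218, with 50% higher. Same-numbered arrays deviated from their group means with correlations of -0.21 to 0.34 and not every pair was above 0.1 in any comparison, so the numbers were not taken to pair the samples, although the sources used here do not settle it. Of the pairs of WT and CD44KO liver, 3 of 5 were above 0.1. In paired analyses the replicate block gave 86, 29 and 11 calls, and the replicate block within genotype 0, 0 and 0 by limma, with 4232 probes at an unadjusted p under 0.05. Normexp background correction, quantile normalization, a floor, a filter on all 5 arrays, kept outlier spots and slide as a random block moved no count by over 1.5 times, but the called probes changed: normexp shared 163 of the 334, 25 of the 66 and 6 of the 26, and quantile normalization 188, 39 and 12.

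Of 3118 recomputed values of named probes, 2081 kept their direction and side of the threshold, 1025 kept their direction and lost the call, 8 gained one and 4 reversed. The 4 reversed values were all of Cd44 probes, which were not called in the fit of all arrays: -0.18 with quantile normalization, -0.11 with median scaling, 2.85 with normexp and 1.45 with a floor, the last 2 on the probe at or below background in CD44KO liver. Median scaling took the call from 68 of 92 named values and the replicate block from 51. Dim signals and 5 arrays a group limit what differences could be read, most of all in liver, where fewer probes were above background.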

Other observations

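Genes of the seminal vesicle were read at high levels on some WAT arrays, and they were picked after their values were seen. Svs5 stood at 3.63, 1.99 and 2.04 on CD44KO WAT 3, 4 and 5 and at -3.14 and -1.15 on CD44KO WAT 1 and 2, against -5.69 to -1.38 in WT WAT. Svs4 stood at -1.03, -1.37 and -1.61 on CD44KO WAT 3, 4 and 5, at -2.43 on WT WAT 1 and at -8.9 to -8.16 on the other 4 WT WAT arrays. Svs6 was highest on the same 3 CD44KO arrays, at 0.03, -1.33 and -1.25. The other 3 genes looked at did not all follow. Svs2 was highest on WT WAT 1, at -0.41 against -4.56, -6.25 and -6.47 on CD44KO WAT 3, 4 and 5, Pate4 was highest on WT WAT 1 as well (-3.29 against -4.37 at most in CD44KO), and Svs3a stood at -3.26 on WT WAT 1 and -3.18 on CD44KO WAT 3. Without WT WAT 1, Svs4 and Svs6 had called differences of -5.25 (limma adjusted p = 0.038) and -5.48 (limma adjusted p = 0.0271). The part of such tissue in other WAT values was not tested.

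Erythroid markers, of which 3 were tested, summed to 3.93 to 5.9 in WT WAT and 5.35 to 7.33 in CD44KO WAT. Gpnmb, a macrophage marker of lipid-laden tissue, fell by 4.4 in liver and was 1 of 7 among 16 macrophage markers that fell there, with none past the limma test in WAT and 2 lower at an unadjusted p under 0.05. The sum of macrophage markers was 6.28 to 7.28 in WT liver and 5.77 to 7.14 in CD44KO liver and 9.1 to 9.6 against 9.07 to 9.46 in WAT. Of 12 T cell markers, Cd8a and Cd247 fell in liver, and Cd3g, Lat, Cd5 and Cd2 fell in WAT, with no called difference by limma and 1 lower and 1 higher at an unadjusted p under 0.05. Over all probes tested, 1.72% were called lower in liver and 2.11% in WAT.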
